A study of Mus musculus with 4 samples.

Results

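The genes described here are 34 NF-κB pathway members and NF-κB-induced inflammatory genes, chosen by symbol from the gene-level tables of a mouse chondrocyte RNA-sequencing experiment that lists 55141 genes. All 34 were found. They comprise 5 inhibitors of the IκB family, 4 NF-κB subunits, 2 receptors, 6 signal adaptors or regulators, 7 chemokines or cytokines, 2 adhesion molecules and 8 secreted or enzymatic effectors. A mean of at least 10 reads over the 4 libraries was reached by 19 of the 34 genes, and by 9540 genes in all. A gene can reach this minimum through 1 library in which it is high, as did Ptgs2, Bcl3 and Traf2, whose other 3 libraries had means of 8.33, 8.67 and 9.67 reads. Just inside it was Bcl3, with a mean of 10.25 reads, and just outside it C3, with 9.5. Counts, medians and backgrounds below are over these 19 and these 9540 genes unless stated otherwise. The members and the other gene lists were chosen with earlier results of these data known. Their counts beside the backgrounds are therefore descriptions only.

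The study asked what microRNAs of the miR-23a/b clusters do in cartilage. Articular chondrocytes were released from femoral heads of mice 3 weeks old with collagenase at 3.5 mg/ml, grown in serum-containing medium, and sequenced from the 3′ ends of their mRNAs. There was 1 library for each of 4 conditions, so differences between conditions cannot be set against a spread between cultures, and none was tested. All 4 cultures were primary chondrocytes on a C57BL/6 background, written C57BL6/J for the mimic library.

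The comparison library carries the label wild type. The study also calls these chondrocytes wild-type, while its methods name them Control, the word used there for floxed mice, so whether they carried floxed alleles is uncertain. Cart-miR-23clus KO chondrocytes carried floxed alleles of both clusters (miR-23a, miR-27a, miR-24-2 and miR-23b, miR-27b, miR-24-1). They also carried a Cre recombinase driven by the Col2a1 promoter, which is active in chondrocytes. Whether other cell types in the culture carried the deletion was not measured here. miR-26a KO chondrocytes were miR-26a -/-. In the fourth library, miR-26a KO + mimic, such cells had been transfected with a double-stranded miR-26a mimic. The labels do not state whether the miR-26a KO library received the negative control siRNA, nor whether animals were pooled. They name no cytokine treatment of any culture.

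NF-κB is a family of dimeric transcription factors that IκB proteins hold in the cytoplasm. Signals from interleukin-1, tumour necrosis factor (TNF) and Toll-like receptors pass through TRAF and IRAK adaptors to the IκB kinase, which marks IκB for destruction and frees the dimers to enter the nucleus. There they switch on chemokines, adhesion molecules, acute-phase proteins and prostaglandin enzymes, together with their own inhibitors, which close the loop. In articular cartilage this pathway is known as a route by which interleukin-1 and TNF turn chondrocytes towards matrix breakdown.

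MicroRNAs of the deleted loci are shown because their seeds, bases 2 to 8 in capitals, define the sites sought in the members. Mature sequences are from RefSeq on GRCm38.p6, written 5′ to 3′, and miR-23b-3p was not in the sequence table used.
mmu-miR-23a-3p: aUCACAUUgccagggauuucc
mmu-miR-27a-3p: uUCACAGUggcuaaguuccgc
mmu-miR-27b-3p: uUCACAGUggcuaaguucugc
mmu-miR-24-3p: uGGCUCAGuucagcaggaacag
mmu-miR-26a-5p: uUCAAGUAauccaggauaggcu
The miR-27a and miR-27b sequences share 1 seed, and miR-24-3p is the same from both clusters. miR-23a, miR-27a and one copy of miR-24 lie on chromosome 8 (chr8:84208563-84208583 for miR-23a-3p), miR-27b and the other copy of miR-24 on chromosome 13, and the copies of miR-26a on chromosomes 9 and 10. The deletions could not be checked from the 5 rows looked up, those of Mir23a, Mir23b, Mir27a, Mir26a-1 and Mir26a-2. These were at 0 TPM in all 4 libraries, in an assay of polyadenylated mRNA. Rows of the other deleted microRNAs were not looked up.

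Annotated 3′ UTRs of at least 50 bases (GENCODE M21, GRCm38) were available for 33 members, all but C3. A match to the miR-23 seed, AATGTGA in the UTR, was held by 5 of these 33 (15.15%) against 17.36% of the 9092 tested genes with such a UTR. For miR-27 (ACTGTGA) it was 9 of 33 (27.27%) against 18.05%, and for miR-24 (CTGAGCC) 9 of 33 (27.27%) against 19.54%. At least 1 of these 3 was present in 16 of 33 members (48.48%) and in 41.89% of tested genes. The 33 members include some under the minimum of reads, whereas the tested genes all reached it. The miR-26a match TACTTGA was in 1 member, Ptgs2 (3.03%), and in 12.42% of tested genes. The median UTR length was 1102 bases for members and 1276 for tested genes. The matches in genes that the ratios below turn on were as follows, written along the gene's strand with the bases complementary to the seed in capitals.
Nfkbib, miR-27 match, chr7:28758602-28758630, minus strand: accacctcgatggccACTGTGAatagcag
Nfkbib, miR-24 match, chr7:28758769-28758797, minus strand: ctgaggtcaacagtcCTGAGCCtcaggga
Icam1, miR-27 match, chr9:21028114-21028142, plus strand: ggtggatggagcaagACTGTGAacacgtg
Csf1, miR-27 match, chr3:107742355-107742383, minus strand: gaaggaagccattgcACTGTGAatactga
Csf1, miR-27 match, chr3:107741167-107741195, minus strand: agcactgcctcacaaACTGTGAgactgcg
Csf1, miR-24 match, chr3:107742211-107742239, minus strand: tgactgagggagcccCTGAGCCccaacct
Ccl7, miR-23 match, chr11:82047201-82047229, plus strand: ggagctgtctgtaggAATGTGAaatggtc
Ccl2, miR-27 match, chr11:82037179-82037207, plus strand: tgtgactcggACTGTGAtgccttaattaa
Cxcl5, miR-24 match, chr5:90761021-90761049, plus strand: agagtgttcttacgtCTGAGCCtgggctg
Ptgs2, miR-26a match, chr1:150106013-150106041, plus strand: attttgatatctttaTACTTGAatttcag
Ptgs2, miR-26a match, chr1:150107082-150107110, plus strand: tattcatattttctcTACTTGAagtttta
Matches to the miR-23, miR-27 or miR-24 seed were also in Bcl3, Birc3, Nfkb2, Ptges, Sod2, Tnfaip2, Tnfaip3, Tnfaip6, Tnfrsf1b and Traf1. No match to any of the 4 seeds was found in the UTRs of Vcam1, Lcn2, Nfkbia, Relb or Saa3. A match is a run of letters and not a measured binding site.

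Promoter windows, from 250 bases before to 50 after the start site, were available for 26 members from RefSeq (GRCm38.p6). The windows of Ccl2, Ccl5, Ccl7, Cxcl5, Nfkb1, Nfkbiz, Relb and Vcam1 were not in the table. The NF-κB consensus, searched on both strands with overlapping matches allowed, was found for 9 of the 26 members (34.62%), against 6.23% of the 7381 tested genes with a window and 5.14% of all 27025 genes with one. The looser GGGNNNNNCC was found for 21 of 26 (80.77%), against 74.08% and 53.52%. The 26 members, unlike the tested genes, include some under the minimum of reads. The members with a consensus match were Nfkbia, Nfkbie, Bcl3, Nfkb2, Tnfaip3, Il1r1, Csf1, Cxcl1 and Sod2. The windows of Icam1, Lcn2 and Ptgs2 held none, which says only that these letters are absent there. Examples upstream of the start site are given for an inhibitor, a subunit and a cytokine, with the match in capitals and the bases written along the gene's strand.
Nfkbia, chr12:55492652-55492691, minus strand: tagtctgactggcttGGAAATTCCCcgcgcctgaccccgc
Nfkb2, chr19:46304683-46304722, plus strand: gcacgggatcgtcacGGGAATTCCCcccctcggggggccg
Csf1, chr3:107760599-107760638, minus strand: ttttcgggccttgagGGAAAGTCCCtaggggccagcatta
In Nfkbia the match lay 29 to 20 bases before the start site, in Nfkb2 39 to 30 and in Csf1 154 to 145.

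The libraries held between 1328042 and 1498579 reads on genes, so 1 gene with 0 reads may hold up to 2.00 to 2.26 RPM (reads per 1000000 reads on genes), the equivalent of 3 reads. Transcripts that define chondrocytes were abundant, as the label calls for: Col2a1, cartilage collagen, had 25154 to 35871 reads, Acan 3302 to 5077 and Sox9 1838 to 2158, and all 11 chondrocyte markers were measured. The summed level of the 11 was 36727 RPM in wild type and between 27926 and 28069 in the others. Markers of other cells were unequal. The 16 macrophage markers summed to 900.2 RPM in wild type, 1041 for Cart-miR-23clus KO, 310.4 for miR-26a KO and 573.4 with the mimic, and the 10 osteoblast markers to 34491, 6964, 15944 and 18451. Of 8 endothelial markers, Cdh5, Tek and Cldn5 were at 0 in every library, and the sum of the recovered reads was between 0.667 and 3.67 RPM. Of 7 lymphocyte and neutrophil markers, 6 were at 0 in every library. In such bulk samples, fewer cells of a type and less RNA per cell cannot be told apart.

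**Figure D1:**
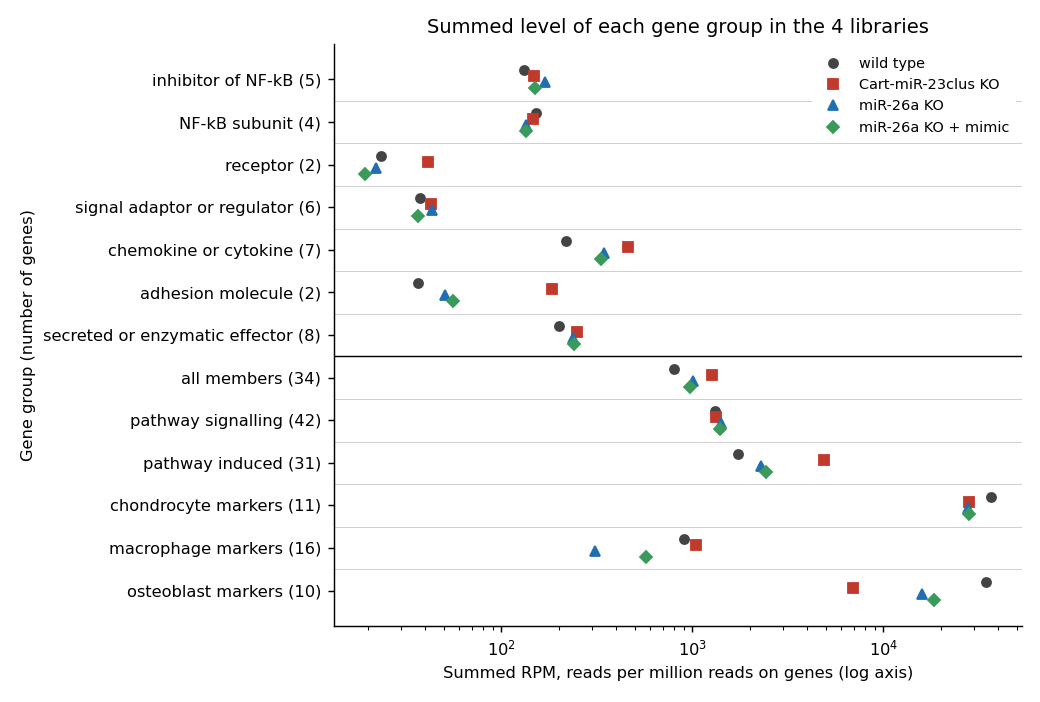
Summed RPM (log axis) of each role among the members, of other pathway genes and of cell type markers, 1 point per library; the number of genes in each group is in brackets. Adhesion molecules ranged from 36.7 in wild type to 184 in Cart-miR-23clus KO, whereas NF-κB subunits stayed between 134 and 151 in the 4 libraries.

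Levels are given as TPM, the deposited value, in which reads are divided by gene length and library size, with the reads behind it. Because reads came from mRNA 3′ ends, TPM is compared here between libraries for 1 gene and not between genes. Ratios are TPM ratios, with exact 95% Clopper-Pearson intervals on the reads. These intervals cover counting error only and compare libraries, not conditions. Between Cart-miR-23clus KO and wild type, 4 of 19 members had a ratio above 2 (Icam1, Lcn2, Ccl7 and Vcam1), where 4.64% of all genes tested did, and 1 was below 0.5 (Ptgs2, which reached the minimum of reads only through wild type), where 4.33% were. The interval lay above 1 for 6 members, with a background of 11.7%, and below 1 for 1, with a background of 12.2%. In total 11 members were higher and 8 lower, and the median log2 ratio was 0.14 against -0.02 over all genes tested.

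Between miR-26a KO and wild type, 3 of 19 members were above 2 (Lcn2, Icam1 and Ccl7; background 4.06%) and 0 below 0.5 (background 3.27%). The interval was above 1 for 4 members, against 11.1% of genes, and below 1 for 0, against 8.42%. Again 11 were higher and 8 lower, with a median log2 ratio of 0.18 against 0.03 over all genes tested. Comparing the mimic library with miR-26a KO, 0 members were above 2 (background 1.98%) and 2 below 0.5 (Relb and Ptgs2; background 1.51%). There the interval lay above 1 for 0 members (background 4.96%) and below 1 for 2 (background 5.06%). The median log2 ratio was -0.02 against 0.00 over all genes tested, with 8 members higher and 11 lower. The first and second of these comparisons share the wild type library and the second and the third share miR-26a KO, so they are not independent and their values are only set side by side.

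**Figure D2:**
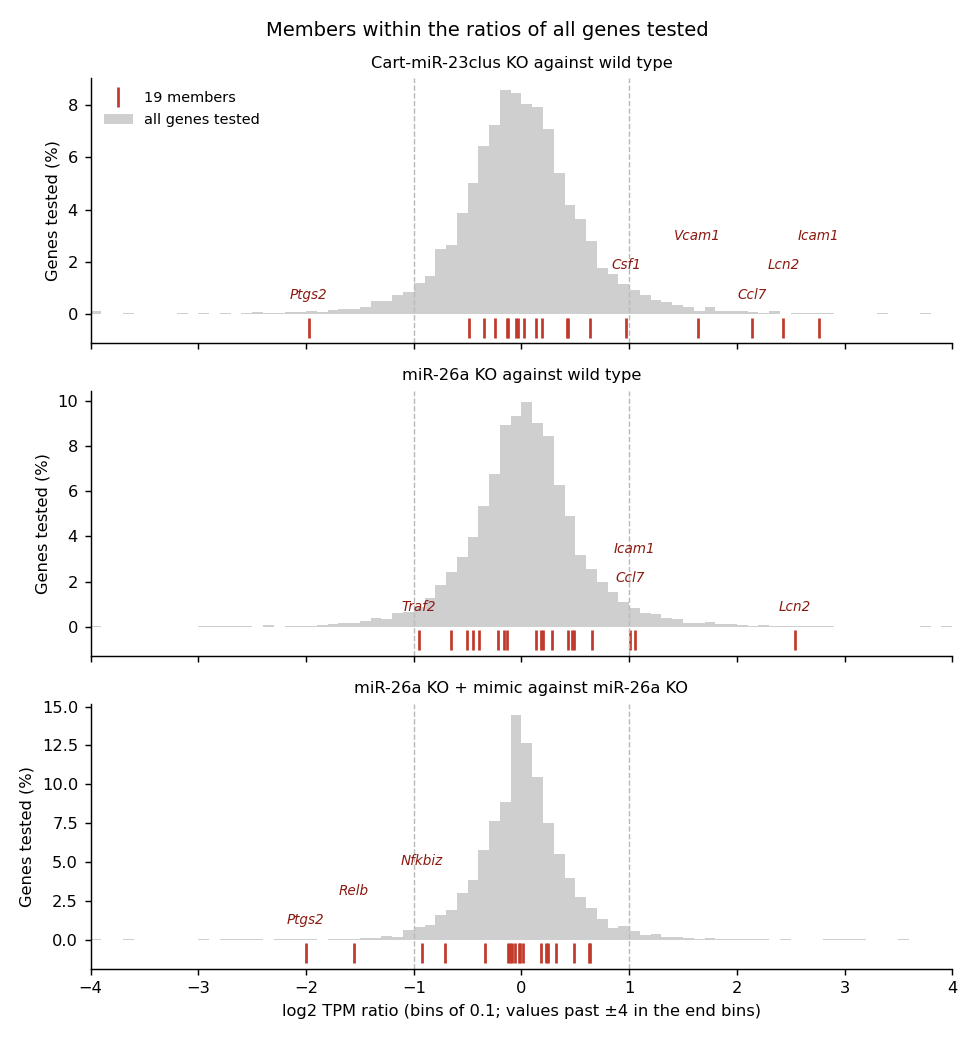
Percent of the 9540 genes tested in bins of log2 TPM ratio (grey bars) and the ratios of the 19 members (red marks below the bars) in the 3 comparisons; dashed lines stand at ratios of 0.5 and 2, and genes with a log2 ratio above 0.9 in size are named. Most members lie in the bulk of the distribution, with Icam1, Lcn2, Ccl7 and Vcam1 to its right and Ptgs2 to its left in Cart-miR-23clus KO, and Lcn2 alone far to the right in miR-26a KO.

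The summed level of the NF-κB subunits was 151 RPM in wild type, 146 for Cart-miR-23clus KO, 134 for miR-26a KO and 135 with the mimic. Rela encodes p65, the subunit that carries most activating capacity. It was at 45.5 TPM (129 reads) in wild type, 41.5 (107 reads) for Cart-miR-23clus KO, 40.6 (105 reads) for miR-26a KO and 37.2 (103 reads) with the mimic. The Cart-miR-23clus KO to wild type ratio was 0.913, and its interval of 0.700 to 1.19 included 1. Nfkb1, the p50 precursor gene, had 24 to 36 reads and Nfkb2, the p52 precursor gene, 32 to 53. The 3 comparisons gave intervals that included 1 for Rela, Nfkb1 and Nfkb2 alike.

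Relb encodes the subunit that pairs with p52 in the non-canonical branch. It was at 9.10 TPM (21 reads) in wild type, 10.0 (21 reads) for Cart-miR-23clus KO, 10.5 (22 reads) for miR-26a KO and 3.56 (8 reads) with the mimic. The mimic library alone was low. Its ratio to miR-26a KO was 0.340 (0.131 to 0.792) and to wild type 0.391 (0.150 to 0.919). On the same scale Nfkb2, the partner of Relb, had a mimic to miR-26a KO ratio of 1.55 (0.980 to 2.48), with an interval that included 1.

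The inhibitors summed to between 131 and 169 RPM. Nfkbia encodes IκBα, the inhibitor that NF-κB itself induces. Its level was 63.7 TPM (105 reads) in wild type, 86.2 (129 reads) for Cart-miR-23clus KO, 77.3 (116 reads) for miR-26a KO and 72.8 (117 reads) with the mimic. Cart-miR-23clus KO was highest, with a ratio to wild type of 1.35 (1.04 to 1.77), whose 99% interval included 1. Divided by miR-26a KO instead, the same library gave 1.11 (0.861 to 1.45), an interval that included 1.

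Nfkbib encodes IκBβ, which retains dimers for longer. It was at 30.7 TPM (66 reads) in wild type, 24.0 (47 reads) for Cart-miR-23clus KO, 42.8 (84 reads) for miR-26a KO and 33.8 (71 reads) with the mimic. The ratio of miR-26a KO to wild type was 1.40 (1.00 to 1.96), with the lower limit barely above 1, and with TMM factors, DESeq2 size factors or a 99% interval it included 1. Nfkbiz and Bcl3, nuclear IκB proteins that act as cofactors of NF-κB on selected genes, had 9 to 16 and 8 to 15 reads. Nfkbie, the gene of IκBε, had 2 to 5 reads, below the minimum.

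**Figure D3:**
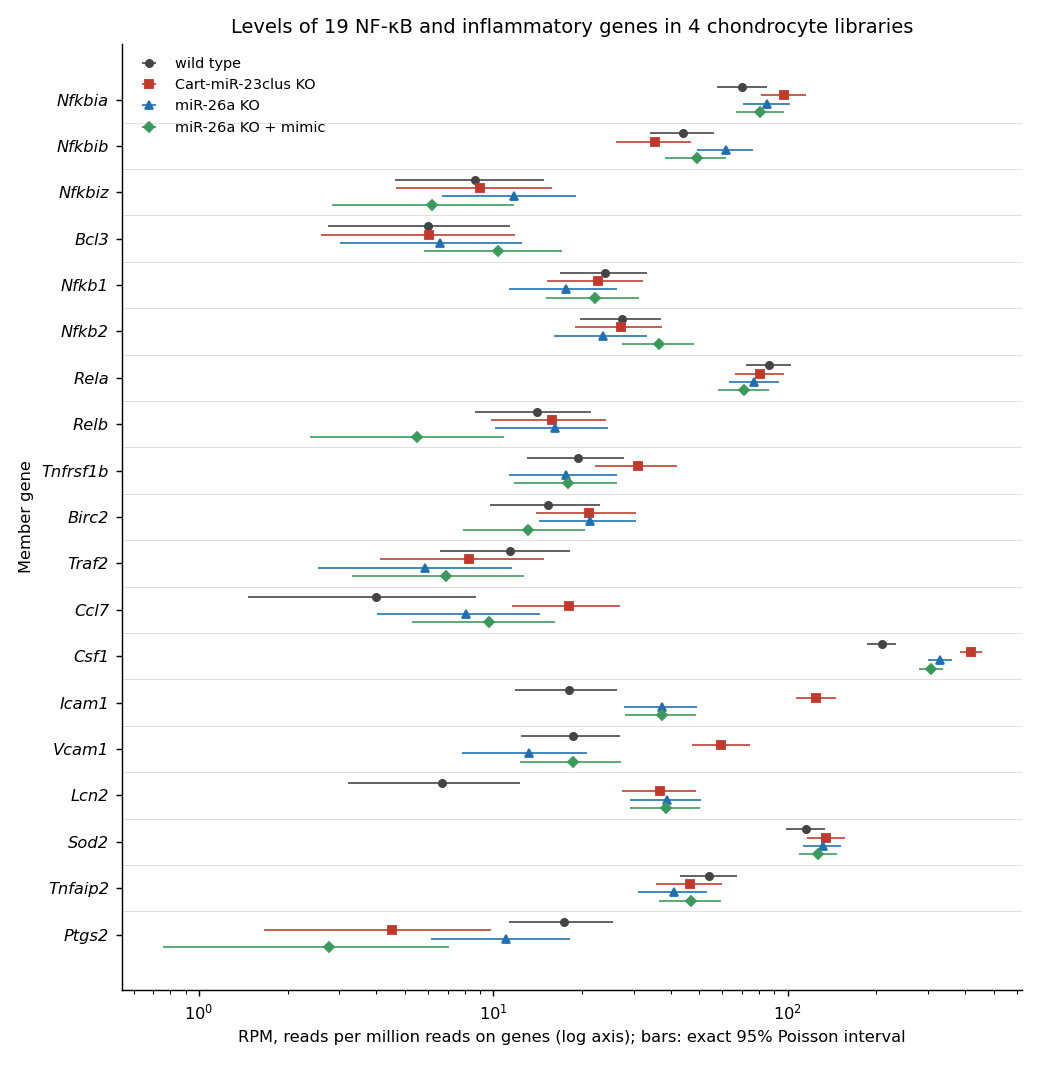
RPM (log axis) of the 19 members with a mean of at least 10 reads, 1 point per library with its exact 95% Poisson interval. For Icam1, Vcam1 and Ccl7 the Cart-miR-23clus KO library is highest, for Lcn2 wild type is below the other 3, and for Relb and Ptgs2 the mimic library is lowest.

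Of the receptors, Tnfrsf1b, which encodes TNF receptor 2, had 29 reads in wild type, 41 for Cart-miR-23clus KO, 24 for miR-26a KO and 26 with the mimic. Cart-miR-23clus KO was highest, at a ratio to wild type of 1.56 (0.944 to 2.60), which included 1, and to miR-26a KO of 1.71 (1.01 to 2.96). Il1r1, the signalling receptor of interleukin-1, had only 2 to 14 reads, highest in Cart-miR-23clus KO. Adaptors and regulators summed to between 36.6 and 43.3 RPM. Birc2, the gene of the ubiquitin ligase cIAP1, had 19 to 29 reads and Traf2, the TNF receptor adaptor, 8 to 17, and every interval included 1.

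The remaining adaptors were below the minimum, and the ratios given for them were chosen after their values had been seen. Birc3, the gene of cIAP2, had 9 reads in wild type, 4 for Cart-miR-23clus KO, 5 for miR-26a KO and 17 with the mimic. The mimic library was highest, with a ratio to miR-26a KO of 3.18 (1.13 to 11.0), and Cart-miR-23clus KO stood at 0.489 (0.110 to 1.75) times wild type. Irak3, whose product IRAK-M restrains Toll-like receptor signalling, had 4, 7, 12 and 4 reads in the same order. Tnfaip3, which encodes the feedback enzyme A20, had 0, 5, 3 and 2 reads. With the 0 reads of wild type set to 3, the Cart-miR-23clus KO to wild type ratio was 1.84. The lower limit of its interval was 1.01, with no upper limit. Traf1, a TNF receptor adaptor that NF-κB induces, was the 1 member with at most 3 reads in every library, and no difference in it was detectable at this depth.

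The chemokines and cytokines summed to 219 RPM in wild type, 462 for Cart-miR-23clus KO, 346 for miR-26a KO and 332 with the mimic, most of it from Csf1. Csf1 encodes macrophage colony-stimulating factor, the growth factor of macrophages and osteoclast precursors. Its level was 97.7 TPM (312 reads) in wild type, 191.6 (556 reads) for Cart-miR-23clus KO, 154.0 (448 reads) for miR-26a KO and 142.6 (444 reads) with the mimic. Wild type was the lowest and Cart-miR-23clus KO the highest. The ratio to wild type was 1.96 (1.70 to 2.26) in Cart-miR-23clus KO, which passed 2 when RPM replaced TPM (2.01), and 1.58 (1.36 to 1.83) in miR-26a KO. For the mimic over miR-26a KO it was 0.926 (0.810 to 1.06).

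Beside Csf1 stand the macrophage markers. Csf1r, the receptor of this factor and a macrophage marker, had 80 reads in wild type, 144 for Cart-miR-23clus KO, 45 for miR-26a KO and 82 with the mimic, and thus was low in miR-26a KO where Csf1 was above wild type. Of the 16 markers, 12 were tested. Against wild type, 9 of these were higher and 3 lower in Cart-miR-23clus KO (median log2 ratio 0.29), all 12 were lower in miR-26a KO (median -1.95), and all 12 were higher in the mimic library than in miR-26a KO (median 1.00). Their part in the members' values was not tested.

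Ccl7 encodes MCP-3, a chemokine that attracts monocytes. It was at 7.17 TPM (6 reads) in wild type, 31.6 (24 reads) for Cart-miR-23clus KO, 14.4 (11 reads) for miR-26a KO and 17.2 (14 reads) with the mimic. Cart-miR-23clus KO was highest. Its ratio was 4.40 (1.75 to 13.2) to wild type and 2.19 (1.03 to 4.95) to miR-26a KO. The ratio of miR-26a KO to wild type, 2.01, had an interval of 0.683 to 6.63 and was not above 2 with TMM factors or DESeq2 size factors. With a mean of 13.75 reads, Ccl7 drops out of both comparisons under a minimum of 20.

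The other chemokines and cytokines were below the minimum of reads, and those given with ratios here were chosen after their values had been seen. Ccl2, the monocyte chemokine MCP-1, had 2 reads in wild type, 13 for Cart-miR-23clus KO, 3 for miR-26a KO and 6 with the mimic. Its Cart-miR-23clus KO to wild type ratio was 7.16 (1.62 to 65.3). Cxcl5, a neutrophil chemokine, had 5, 15, 4 and 3 reads, with a ratio of 3.30 (1.14 to 11.6). Both were highest in Cart-miR-23clus KO, as Ccl7 was. Ccl5 and Cxcl1, further chemokines, had 0 to 5 reads, and Il33, an alarmin of the interleukin-1 family, 0 to 4 reads.

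The adhesion molecules held the largest ratio among the tested members in Cart-miR-23clus KO. Icam1 encodes the ligand of leukocyte integrin LFA-1 and lies at chr9:21015985-21028817. It was at 11.7 TPM (27 reads) in wild type, 79.4 (166 reads) for Cart-miR-23clus KO, 24.3 (51 reads) for miR-26a KO and 24.1 (54 reads) with the mimic. Cart-miR-23clus KO was far above the others, and wild type was the lowest. The ratio to wild type was 6.77 (4.49 to 10.6) in Cart-miR-23clus KO and 2.07 (1.28 to 3.44) in miR-26a KO. Against miR-26a KO, Cart-miR-23clus KO stood at 3.26 (2.37 to 4.56), and the mimic library at 0.989 (0.662 to 1.48).

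Vcam1 encodes the ligand of integrin α4β1 and lies at chr3:116109949-116129688. Its level was 7.73 TPM (28 reads) in wild type, 24.0 (79 reads) for Cart-miR-23clus KO, 5.45 (18 reads) for miR-26a KO and 7.64 (27 reads) with the mimic. Only the Cart-miR-23clus KO library was high, at 3.11 (2.00 to 4.97) times wild type and 4.40 (2.61 to 7.80) times miR-26a KO. In miR-26a KO the ratio to wild type was 0.706 (0.368 to 1.32), on the other side of 1 from Icam1, whose interval excluded 1. Both molecules are also expressed by endothelial cells. Of the 8 endothelial markers, Cdh5, Tek and Cldn5 were at 0 in every library, Pecam1, Emcn, Vwf and Esam had 0 to 3 reads, and Kdr was above 0 with the mimic alone, at 0.166 TPM. Markers of other cell types also differed between libraries. Of the osteoblast markers 8 of 8 tested were lower in Cart-miR-23clus KO than for wild type (median log2 ratio -2.58). The same 8 were lower in miR-26a KO than for wild type (median -0.80). The 5 smooth muscle markers summed to 484 RPM in Cart-miR-23clus KO and to between 221 and 290 in the others. Most of this came from Acta2, and Myh11 was at 0 in every library. The 5 adipocyte markers, with Cidec and Lep at 0 in every library, summed to 175 and to between 43.4 and 72.5, most of it from Fabp4. The 7 fibroblast markers, with Pi16 at 0 in every library, summed to 735 and to between 1120 and 1147, although 4 of the 6 tested were higher than for wild type. The part of these cell types in the Icam1 and Vcam1 values was not tested.

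**Figure D4:**
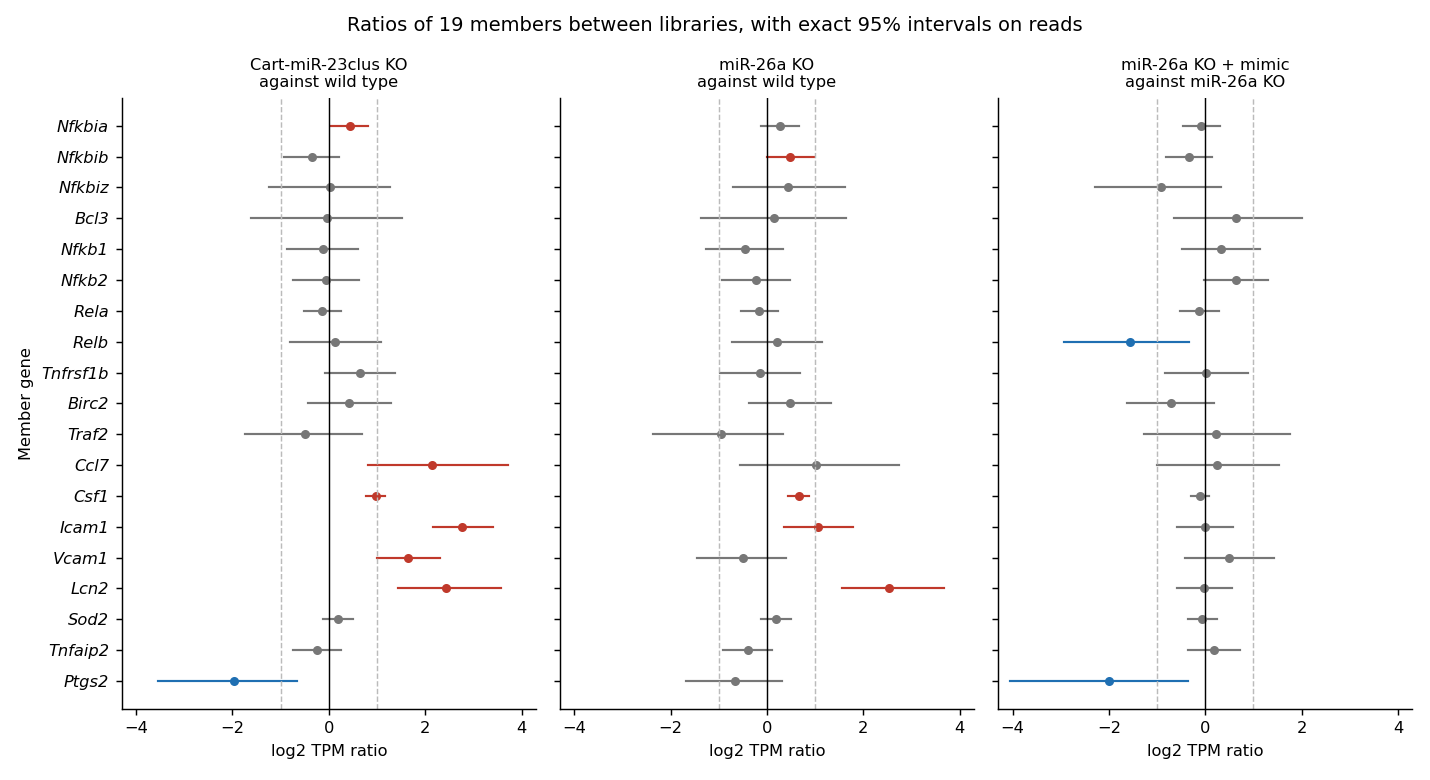
log2 TPM ratios of the 19 tested members in the 3 comparisons with exact 95% intervals on the reads; red marks intervals above 1, blue marks intervals below 1, grey marks the rest, and dashed lines stand at ratios of 0.5 and 2. Icam1, Csf1 and Lcn2 are red in both comparisons with wild type, which share that library, whereas the third panel has only the blue marks of Relb and Ptgs2.

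Among the effectors with a mean of at least 10 reads, only Lcn2 had an interval above 1 in both comparisons with wild type. Lcn2 encodes lipocalin-2, an iron-siderophore-binding acute-phase protein, and lies at chr2:32384633-32388252. It was at 6.97 TPM (10 reads) in wild type, 37.6 (49 reads) for Cart-miR-23clus KO, 40.5 (53 reads) for miR-26a KO and 40.0 (56 reads) with the mimic. The wild type library was low and the other 3 were close to each other. The ratio to wild type was 5.39 (2.70 to 11.9) in Cart-miR-23clus KO and 5.82 (2.93 to 12.8) in miR-26a KO, and Cart-miR-23clus KO against miR-26a KO gave 0.927 (0.615 to 1.39). All of the ratios to wild type rest on the same 10 reads. Neutrophils store lipocalin-2. Of the neutrophil markers S100a8, S100a9, Ly6g and Elane, S100a8 had 1 read in wild type and 0 in the other libraries, and the remaining markers were at 0 in every library. The part of neutrophils in the Lcn2 values was not tested.

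Ptgs2 encodes cyclooxygenase-2, the inducible enzyme of prostaglandin synthesis, and went the other way. It was at 5.59 TPM (26 reads) in wild type, 1.42 (6 reads) for Cart-miR-23clus KO, 3.54 (15 reads) for miR-26a KO and 0.882 (4 reads) with the mimic. Wild type was the highest, and Cart-miR-23clus KO and the mimic library were low. Cart-miR-23clus KO had a ratio to wild type of 0.254 (0.0855 to 0.631), and the mimic library a ratio to miR-26a KO of 0.249 (0.0602 to 0.782). The ratio of miR-26a KO to wild type was 0.634 (0.312 to 1.24). Ptgs2 is the member with the miR-26a seed matches shown above, and the part of these matches in either miR-26a comparison was not tested. With a mean of 12.75 reads it drops out under a minimum of 20.

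Sod2, the mitochondrial superoxide dismutase gene, had 173 reads in wild type, 179 for Cart-miR-23clus KO, 179 for miR-26a KO and 184 with the mimic. The libraries were close, and the Cart-miR-23clus KO ratio of 1.14 had an interval of 0.919 to 1.41. Tnfaip2, a TNF-induced gene, had 56 to 81 reads and intervals that all included 1.

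Acute-phase genes under the minimum were again chosen after their values were seen. C3, the central complement component, had 3 reads in wild type, 16 for Cart-miR-23clus KO, 10 for miR-26a KO and 9 with the mimic. Saa3, serum amyloid A3, had 1, 15, 6 and 12 reads. In both genes wild type was lowest and Cart-miR-23clus KO highest, as for several members above. For C3 the Cart-miR-23clus KO to wild type ratio was 5.87 (1.68 to 31.4). For Saa3 it was 16.5 (2.54 to 695), which rests on 1 read. Ptges, the prostaglandin E synthase gene, had 4, 3, 1 and 9 reads. The mimic library was at 8.41 (1.17 to 369) times miR-26a KO, which again rests on 1 read. Tnfaip6, the gene of the hyaluronan-binding protein TSG-6, had 3, 1, 4 and 5 reads, with a Cart-miR-23clus KO to wild type ratio of 0.367 (0.00699 to 4.57).

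Across the members, the highest TPM fell in Cart-miR-23clus KO for 7 of the 19 tested, with a background of 25.4% of genes, and in wild type for 5, with a background of 26.5%. It fell in miR-26a KO for 5 (background 24.8%) and in the mimic library for 2 (background 23.3%). Those highest in Cart-miR-23clus KO were Nfkbia, Tnfrsf1b, Ccl7, Csf1, Icam1, Vcam1 and Sod2. Those highest in wild type were Nfkb1, Rela, Traf2, Tnfaip2 and Ptgs2. Of these, Traf2 and Ptgs2 reached the minimum of reads only through wild type. Bcl3, highest in the mimic library, reached it only through that library. Together the 34 members took 1199 reads in wild type, 1693 for Cart-miR-23clus KO, 1367 for miR-26a KO and 1403 with the mimic, which is 800.1, 1275, 1003 and 968.1 RPM.

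Other genes of the pathway were taken from lists of 42 signalling genes and 31 induced genes. Of the signalling genes, 29 were tested. In Cart-miR-23clus KO against wild type 15 were higher and 14 lower (median log2 ratio 0.02), with 1 ratio above 2 (background 4.64%), that of Il1rl1, whose interval included 1, and 0 below 0.5 (background 4.33%). The interval was above 1 for 0 of them, against 11.7% of all genes tested, and below 1 for 1, against 12.2%. The latter was Tab2, an adaptor of the TAK1 kinase, at 0.743 (0.604 to 0.912). In miR-26a KO against wild type 15 were higher and 14 lower (median 0.01), with the interval above 1 for 3 (background 11.1%) and below 1 for 1 (background 8.42%). Il1rl1, the interleukin-33 receptor gene, had 6 reads in wild type, 11 for Cart-miR-23clus KO, 29 for miR-26a KO and 16 with the mimic. It was highest in miR-26a KO, at 5.31 (2.17 to 15.6) times wild type. With the mimic against miR-26a KO 17 were higher and 12 lower (median 0.07), and the interval was above 1 for 0 (background 4.96%) and below 1 for 3 (background 5.06%).

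Of the induced genes 10 were tested, and 11 of the 31, among them Il1b, Il6 and Nos2, had 0 reads in every library. In Cart-miR-23clus KO against wild type 8 were higher and 2 lower (median log2 ratio 0.75), with 4 ratios above 2 (background 4.64%) and 0 below 0.5 (background 4.33%). The interval was above 1 for the same 4 genes (background 11.7%) and below 1 for 1 (background 12.2%). Because the list was chosen with earlier results of these data known, these counts are not an independent contrast with the background. Cxcl12, a chemokine that retains haematopoietic cells, had 765 reads in wild type, 5045 for Cart-miR-23clus KO, 428 for miR-26a KO and 531 with the mimic. Only Cart-miR-23clus KO was above wild type, with a ratio of 7.26 (6.73 to 7.84). Il1rn, the gene of the interleukin-1 receptor antagonist, had 23, 94, 48 and 34 reads in the same order of libraries, with ratios to wild type of 4.50 (2.83 to 7.44) in Cart-miR-23clus KO and 2.29 (1.37 to 3.95) in miR-26a KO. Zfp36, which encodes the mRNA-destabilising protein tristetraprolin, stood at 2.50 (1.19 to 5.63) in Cart-miR-23clus KO and Ier3, an early response gene, at 2.03 (1.60 to 2.59). In all 4 of these genes Cart-miR-23clus KO was the highest library. The gene with the interval below 1 was Mmp13, the gene of collagenase-3, named after its values were seen. It had 1415 reads in wild type, 836 for Cart-miR-23clus KO, 2216 for miR-26a KO and 2518 with the mimic. Cart-miR-23clus KO was the lowest library, at 0.650 (0.596 to 0.709) times wild type.

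In miR-26a KO against wild type, 7 of the 10 induced genes were higher and 3 lower (median log2 ratio 0.46), with 1 ratio above 2 (Il1rn; background 4.06%) and 1 below 0.5 (background 3.27%). The interval was above 1 for 3 (background 11.1%), among them Mmp13 at 1.72 (1.61 to 1.84), and below 1 for 2 (background 8.42%), Mmp3 and Cxcl12, the latter at 0.614 (0.545 to 0.693). The gene below 0.5 was Mmp3, the gene of stromelysin-1, with 17 reads in wild type, 29 for Cart-miR-23clus KO, 5 for miR-26a KO and 22 with the mimic. It was lowest in miR-26a KO, at 0.323 (0.0932 to 0.912) times wild type. Against miR-26a KO the mimic library was at 4.11 (1.52 to 13.9), and in that comparison 6 of the 10 genes were higher and 4 lower (median 0.04). The Mmp3 ratio was the 1 above 2 (background 1.98%), and the interval was above 1 for 3 genes (background 4.96%) and below 1 for 0 (background 5.06%).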

How the data were processed

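RNA of 4 libraries was compared: wild type, miR-26a KO, the same with the miR-26a mimic, and Cart-miR-23clus KO, 1 of each. Per the methods of the study, the authors prepared 3′ mRNA libraries (QuantSeq, FWD) and mapped single-end reads without quality filtering; the labels name mm10 and GRCm38.p6, and the aligner, the counting tool and its strand setting are not given in the sources used here. The deposited TPM values were made by the authors from reads per gene, 1 length per gene and the library total. The deposited estimated counts are whole numbers of reads per gene, so no rounding was needed, and cover 3 libraries. The mimic library has no deposited counts, and its reads were worked out from the spacing of its TPM values: 14429 of 14429 values lay within 0.01 of a whole number of reads, and 588 genes could not be recovered.

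Genes with a mean of at least 10 reads over the 4 libraries were tested for ratios above 2 or below 0.5 and for exact 95% Clopper-Pearson intervals. A gene with 0 reads in 1 of the compared libraries was set to 3 reads for its ratio. The members, gene lists and marker lists were chosen with earlier results of these data known. Values are given in full for members whose interval excluded 1 in at least 1 comparison with at least 20 reads in 1 of its libraries; of the other pathway genes, up to 5 per comparison are named among those past 2-fold, or below 0.5, with an interval excluding 1. Further genes named were chosen after their values were seen. Seed matches were sought in GENCODE M21 UTRs, taking 1 transcript per gene. Interval steps were tested on simulated data. The alternatives were RPM, edgeR TMM factors, DESeq2 size factors, other filters, 0.5 TPM added, and a 99% interval. Python 3.11.15, scipy 1.17.1, edgeR 4.0.16 and DESeq2 1.42.0 were used.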

Additional observations from a re-analysis of the deposited data

How the results depend on the processing

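No paired analysis was possible because every condition is a single library. For the same reason none could be left out, the spread between cultures is unknown, and 15 of the 34 members had a mean under 10 reads. Of 132 alternative values 13 were counts that changed by more than 1.5 times, and 0 values changed direction. The 36 values of single genes stayed within their main 95% intervals under the other scalings. Counting every gene with TPM above 0 in both libraries, Cart-miR-23clus KO against wild type had 10 of 31 members above 2 (10.3% of such genes), 3 below 0.5 (8.02%) and 10 with the interval above 1 (8.94%). On this filter miR-26a KO against wild type had 6 above 2 (8.72%) and 1 below 0.5 (7.51%), and the mimic library against miR-26a KO had 2 of 33 above 2 (5.2%), 5 below 0.5 (7.31%) and 2 with the interval above 1 (3.84%). With a mean of at least 20 reads, which removes Ccl7, Ptgs2 and Relb among others, members above 2 fell from 4 to 3 in Cart-miR-23clus KO and from 3 to 2 in miR-26a KO, each against wild type. There, 0 members remained below 0.5 and 0 with the interval below 1 in Cart-miR-23clus KO against wild type, and likewise 0 and 0 for the mimic against miR-26a KO. On that filter the members' median log2 ratio in the first comparison was 0.42 in place of 0.14. With a 99% interval, Nfkbia no longer lay above 1 in the first comparison, nor Nfkbib in the second, and 1 member (Relb) was left below 1 in the last. Setting reads of 3 or fewer to 3 and taking all members, which was added after the data had been seen, gave median log2 ratios of 0.14, 0.14 and -0.02 for the 3 comparisons.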
